A study of Mus musculus with 57 samples.

Results

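A set of 10 genes that govern entry into the cell cycle was followed through 57 bulk RNA-seq libraries of mouse bone marrow: the D-type cyclins Ccnd1, Ccnd2 and Ccnd3, their kinases Cdk4 and Cdk6, the inhibitors Cdkn1b, Cdkn2c and Cdkn2d, and the pocket proteins Rb1 and Rbl2. They were taken as the lines of the count table with an Ensembl identifier and one of these 10 gene names. Each name matched 1 identifier, so 10 genes of 47712 with an Ensembl identifier, or of 56332 genes in all, were members. The mice were C57BL/6 males aged 8 weeks that were put on treatment for 4 weeks, either control or an antibody to pregnancy-associated plasma protein A (anti-PAPP-A; PAPP-A is a secreted protease that cleaves insulin-like growth factor binding proteins). No mutant allele or transgene is named for any group. Marrow was sorted into mesenchymal stromal cells (MSC), stem cells of the blood system (HSC), the progenitors of lymphocytes (CLP), of granulocytes and macrophages (GMP) and of megakaryocytes and erythrocytes (MEP), and myeloid cells; the surface markers of the sort were not given in the sources used here. Control libraries numbered 6 for MSC, 3 for HSC, 4 each for CLP, GMP and MEP, 6 for myeloid cells and 4 for unsorted whole marrow (WBM); anti-PAPP-A libraries numbered 4 each for MSC, HSC, CLP, GMP and MEP and 6 for myeloid cells. Each library came from a numbered mouse pool, 10 control and 10 treated pools in all, and how many mice a pool held was not given. The p-values of treatment within a population measure the spread between pools. In the main fits that join several populations, libraries of 1 pool enter as separate. There each gene's spread is taken over all populations of the fit, so those p-values do not measure the spread between pools of the compared populations alone.

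A cell in G1 decides whether to divide again through a short chain of proteins. Growth factor signals raise D-type cyclins, which bind CDK4 or CDK6; the kinase complex phosphorylates the retinoblastoma protein and its relatives, which then release E2F factors, and S phase genes are transcribed. The INK4 inhibitors p18 (Cdkn2c) and p19 (Cdkn2d) bind CDK4 and CDK6 and block cyclin binding, p27 (Cdkn1b) acts mainly on cyclin E-CDK2 complexes, and p130 (Rbl2) is the pocket protein that accumulates in resting cells and holds cell cycle genes silent with E2F4 in the DREAM complex. In marrow this chain separates stem cells, most of which rest, from progenitors that divide often and from neutrophils that have left the cycle.

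Cdk4 and Cdk6 were highest in GMP and MEP, and Cdkn2d was highest in myeloid cells. Before the values, 3 promoter windows are shown for these genes, whose levels differed widely between GMP or MEP and myeloid cells. Each is the 250 bases before the RefSeq transcription start on GRCm38.p6, read 5′ to 3′ on the strand of the gene, with CACGTG, the E-box that MYC-MAX dimers bind, in capitals. Cdk4 is at chr10:127063285-127063534 on the plus strand, Cdk6 at chr5:3343643-3343892 on the plus strand and Cdkn2d at chr9:21291210-21291459 on the minus strand.
Cdk4: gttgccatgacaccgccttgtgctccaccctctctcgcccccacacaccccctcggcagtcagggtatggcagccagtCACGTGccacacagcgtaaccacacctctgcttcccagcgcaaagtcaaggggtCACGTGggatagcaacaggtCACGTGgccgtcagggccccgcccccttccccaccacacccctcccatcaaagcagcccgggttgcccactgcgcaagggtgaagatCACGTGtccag
Cdk6: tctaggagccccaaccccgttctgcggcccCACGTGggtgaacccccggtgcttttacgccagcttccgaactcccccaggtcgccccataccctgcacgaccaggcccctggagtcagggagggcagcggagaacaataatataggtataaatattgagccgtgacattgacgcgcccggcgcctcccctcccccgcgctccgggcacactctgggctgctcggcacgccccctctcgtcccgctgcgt
Cdkn2d: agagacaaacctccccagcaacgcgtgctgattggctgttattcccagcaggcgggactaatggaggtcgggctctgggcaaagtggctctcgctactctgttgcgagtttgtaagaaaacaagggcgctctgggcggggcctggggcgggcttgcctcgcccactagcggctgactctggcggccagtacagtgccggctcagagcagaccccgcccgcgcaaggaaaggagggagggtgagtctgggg
The Cdk4 window held the hexamer 4 times, beginning 172, 118, 98 and 11 bases before the start. Of 32851 mouse promoter windows of the same length, 6.02% held CACGTG at least once and 7 windows, 0.0213%, held it 4 times or more. The hexamer reads the same on both strands and its 4 copies in Cdk4 do not overlap. Cdk6 held 1 copy, 220 bases before the RefSeq start, and Cdkn2d held none. By the gene spans given below, the Cdk6 window and most of the Cdkn2d window lie inside their genes. These windows are therefore not the bases before the outermost start of those spans.

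Promoter windows were matched for 7 of the 10 members: Cdk4, Cdk6, Cdkn1b, Cdkn2c, Cdkn2d, Rbl2 and Ccnd3, with Ccnd3 and Cdkn2c having 2 start sites each. Searched on both strands, Rbl2 held TTTGAA, the core of the cell cycle homology region, 201 bases before its start, a hexamer found in 16.0% of all windows. Ccnd3 held a forkhead core (TGTTTAC or TGTTTGC) 243 bases before its upstream start, which 7.29% of windows hold. No member window held an E2F core (TTTCCCGC, TTTGGCGC or TTTCGCGC, in 1.53% of windows) or the PU.1 core GAGGAAGT (2.44% of windows). These are matches of letters and not measured binding.

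Depth ran from 107412 to 125537299 counts per library, with a median of 10376654. Fewer than 1000000 counts were held by 4 libraries: anti-PAPP-A HSC pool 6 (107412), control MSC pool 7 (321860), anti-PAPP-A MSC pool 8 (499300) and control CLP pool 5 (587316). The summed level of each sorted population's own markers was highest in that population. For example, Cxcl12, Lepr, Pdgfra and Kitl were at 29740 to 53260 CPM (counts per 1000000 scaled counts) in control MSC against at most 89.1 elsewhere among controls. Markers of other populations were present as well. Control CLP held 2719 to 9065 CPM of summed GMP markers beside 1445 to 2235 of their own, where HSC held 135.7 to 226.8 of the GMP markers. Control MSC held 618.6 to 6064 CPM of myeloid and 538.4 to 2979 of erythroid markers. The part of such cells in the members' levels was not tested. Pappa, which encodes the antibody's target, was at 355.4 to 612.9 CPM in control MSC and at 2.43 CPM or less in every other control library. Libraries were labelled with batch A, B or C: HSC, CLP, GMP and MEP were all batch A, MSC were split between A and C, myeloid cells between B and C, and WBM had 3 libraries of A and 1 of C. In bulk libraries, fewer cells of a type and less RNA per cell cannot be told apart.

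The members lie on different chromosomes or far apart. On GRCm38, Ccnd1 spans chr7:144929931-144939925 (minus strand), Ccnd2 chr6:127125162-127152193 (minus), Ccnd3 chr17:47505051-47599691 (plus), Cdk4 chr10:127063534-127067920 (plus) and Cdk6 chr5:3341485-3531008 (plus). Cdkn1b spans chr6:134920401-134925513 (plus), Cdkn2c chr4:109660876-109667189 (minus), Cdkn2d chr9:21288410-21291407 (minus), Rb1 chr14:73183673-73325822 (minus) and Rbl2 chr8:91070057-91123844 (plus). Several share exon sequence with a gene on the opposite strand, and whether the counting used strand was not given in the sources used here. Ccnd1 overlaps LTO1 by 1100 bases, Rb1 overlaps Rcbtb2 by 488 and Lpar6 by 408, Rbl2 overlaps Aktip by 693, Cdk4 overlaps Tspan31 by 641 and Ccnd3 overlaps Bysl by 361, so a part of their reads could belong to the partner. LTO1 stood at a mean of 18.8 CPM in control myeloid cells, where Ccnd1 was at most 3.83, and at 13.9 CPM in control HSC, where Ccnd1 was highest. Aktip had means of 18.92 CPM in control HSC, where Rbl2 was highest, and 7.237 in CLP, 8.756 in GMP and 5.764 in MEP. In MSC and myeloid cells, where Rbl2 was lower than in HSC, Aktip was at 32.15 and 18.78. Rcbtb2 was at 75.83 CPM in HSC and 29.54 in MEP, while Rb1 was higher in MEP. The part of shared reads in the members' levels was not tested.

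All 10 members differed in level across the 6 control sorted populations (edgeR's quasi-likelihood test, Benjamini-Hochberg adjusted over 21384 genes). The background was high, since that test called 67.5% of all genes. The smallest adjusted p was that of Ccnd3 (3.74e-10), followed by Cdkn2d (7.78e-10) and Ccnd2 (1.68e-07), and the largest was that of Rbl2 (0.0478). Rbl2 lost its call in 26 of 38 alternative fits, with adjusted p up to 0.156 when HSC pool 5 was left out, and the other 9 members kept theirs in all 38.

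**Figure D1:**
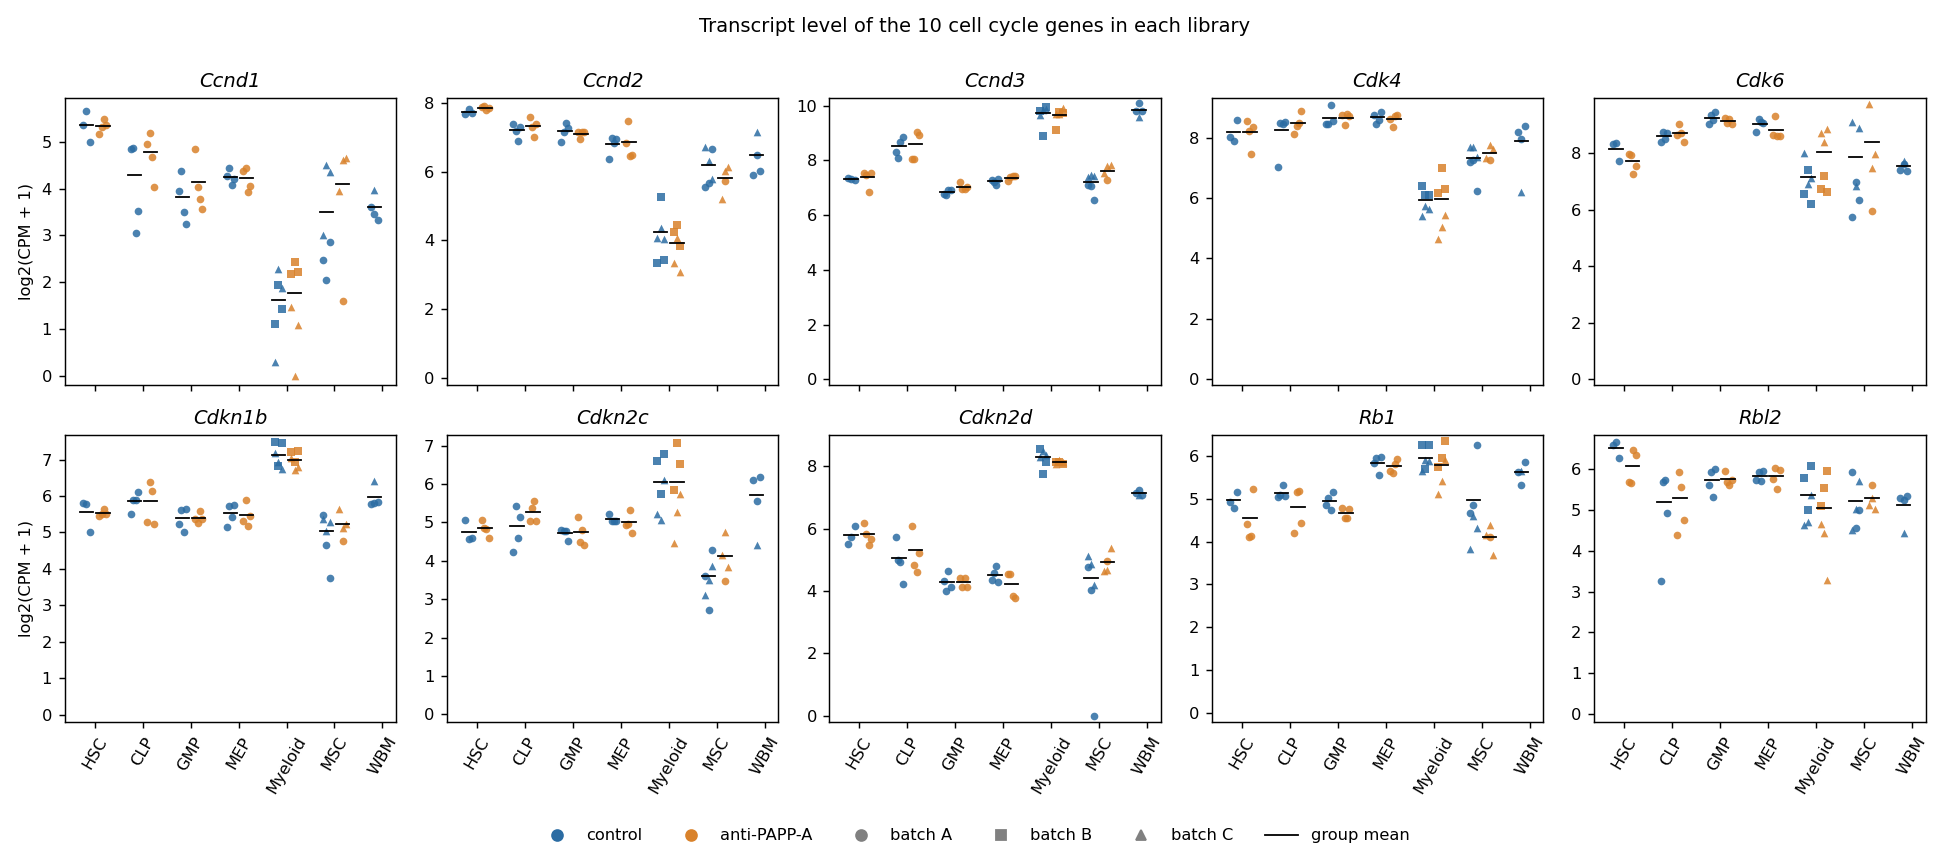
Level of each of the 10 genes, as log2(CPM + 1) on the y axis, in every library of the 7 populations on the x axis; each point is 1 mouse pool, colours separate control from anti-PAPP-A, point shapes mark batch A, B or C, and bars are group means. Ccnd3 and Cdkn2d were highest in myeloid cells among the sorted populations, where Ccnd1, Ccnd2 and Cdk4 were lowest, and control and anti-PAPP-A points lie over each other in nearly every group.

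The 3 D-type cyclins had different patterns. Ccnd1, which serves most adherent tissues, was low throughout: the 3 control HSC pools had 40.0, 49.4 and 31.2 CPM, and the 4 GMP pools had 14.4, 19.8, 10.3 and 8.42. MEP stood at 18.4, 20.6, 16.0 and 17.5 CPM and CLP at 27.9, 28.5, 7.32 and 10.5. Every HSC pool was above every pool of every other control population. Below HSC, the ranges of CLP, MEP, GMP and MSC overlapped step by step, and myeloid cells came last with a lowest value of 0.221, a median of 2.16 and a highest of 3.83 CPM, overlapping the lowest MSC pool.

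Ccnd2, the D-type cyclin that hematopoietic growth factors induce, was at 202.7, 225.2 and 208.6 CPM in HSC. The 4 CLP pools had 166.2, 145.0, 117.1 and 156.1 CPM, the GMP pools 114.6, 142.3, 169.8 and 153.8, and the MEP pools 81.8, 125.9, 112.5 and 123.2. The HSC range stood above all others, while CLP, GMP and MEP overlapped one another. MSC ran from 46.2 through a median of 66.7 to 103.7 CPM and overlapped MEP. Myeloid cells were lower than every other population, from 9.13 through a median of 15.6 to 37.1 CPM.

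Ccnd3, the cyclin that lymphoid precursors and erythroid cells rely on, ran the other way. Control myeloid cells had 473.7 to 993.0 CPM with a median of 909.4, and CLP had 313.0, 271.8, 408.7 and 456.5, so that these ranges stood apart from each other and from the rest. HSC had 164.1, 157.4 and 155.9 CPM, MEP 155.2, 148.2, 135.5 and 156.7, and GMP 108.4, 104.2, 120.2 and 119.5. HSC, MEP and MSC overlapped. Unsorted marrow was at 762.5 to 1090 CPM, overlapping the sorted myeloid cells, with its highest library above all of them.

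Expressed per kilobase of exon, the composition of the D-type cyclin pool turned over with the cell type. In control HSC, Ccnd2 made up 45.8% ± 1.71 (SD, n = 3) of the summed CPM per kb of the 3 genes, Ccnd3 36.9% ± 2.32 and Ccnd1 17.2% ± 2.90. In GMP, Ccnd2 was at 49.3% ± 3.97, Ccnd3 at 41.5% ± 2.93 and Ccnd1 at 9.16% ± 3.76 (n = 4). In MEP the Ccnd3 share was 52.2% ± 4.28 and in CLP 67.4% ± 9.09 (n = 4 each). In myeloid cells Ccnd3 was 97.2% ± 2.51 of the pool (n = 6), Ccnd2 2.30% ± 2.22 and Ccnd1 0.483% ± 0.363. MSC stood between, with a Ccnd3 share of 63.0% ± 9.28 (n = 6). These are shares of transcript level, with no test, and they move with the length taken for each gene: with the longest transcript in place of the union of exons, the order of Ccnd2 and Ccnd3 turned in HSC and GMP, where the Ccnd3 share was 48.3% and 52.7% and the Ccnd2 share 39.2% and 40.9%.

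**Figure D2:**
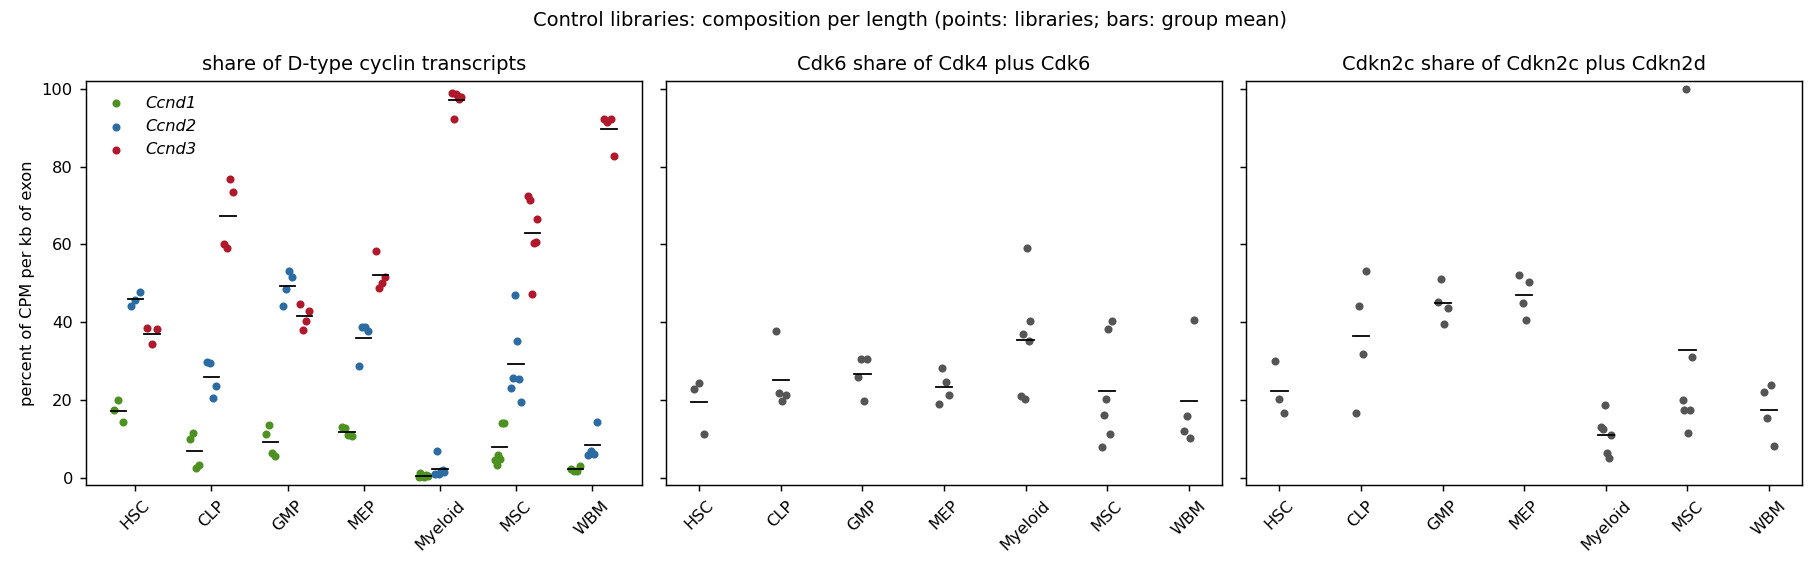
Shares of CPM per kilobase of exon in each control library, in percent on the y axis and by population on the x axis: the 3 D-type cyclins, Cdk6 within Cdk4 plus Cdk6, and Cdkn2c within Cdkn2c plus Cdkn2d. Ccnd3 takes 92.2 to 98.8% of the D-type cyclin level in the 6 myeloid libraries against 34.3 to 38.4% in the 3 HSC libraries.

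Both kinases had their highest means in GMP and MEP. Cdk4 was at 433.7, 352.5, 386.4 and 459.4 CPM in MEP and at 349.3, 346.4, 541.8 and 371.2 in GMP, and it was at 257.2, 235.1 and 383.8 in HSC. CLP held 128.7, 360.1, 345.3 and 368.2 CPM, the low value being pool 1, in which the summed level of the Myeloid markers S100a8, S100a9, Ltf, Itgam and Ly6g was 6303 CPM against 264.8, 428.2 and 870 in the other CLP pools; the part of those cells in it was not tested. MEP, GMP, CLP and HSC overlapped as neighbours. MSC lay below HSC, from 74.5 through a median of 157.4 to 207.5 CPM, and myeloid cells were lowest, from 40.9 through 59.4 to 83.0, overlapping the lowest MSC pool.

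Cdk6, the kinase known for its role in blood stem and progenitor cells, was at 522.4, 656.1, 574.4 and 700.3 CPM in GMP and at 433.9, 597.4, 545.1 and 535.9 in MEP. CLP followed with 334.8, 432.0, 363.6 and 424.2 and HSC with 325.0, 326.5 and 209.5. GMP and MEP overlapped, and MEP, CLP and HSC stood apart from each other. In MSC the spread was wide: the pools of batch A had 52.2, 125.8 and 80.7 CPM and those of batch C 549.7, 113.6 and 472.1. The batches overlapped, since the lowest pool of batch C lay below the highest of batch A. Myeloid cells were at 94.2, 170.7 and 72.7 CPM in batch B and 254.6, 120.0 and 139.9 in batch C. Per kilobase, Cdk4 exceeded Cdk6 in every population mean: Cdk6 was 19.4% ± 7.15 (SD, n = 3) of their sum in HSC, 26.6% ± 5.10 in GMP and 35.4% ± 14.4 in myeloid cells (n = 6), where single libraries ran from 20.1 to 59.1%.

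Of the inhibitors, Cdkn2d had the widest range. Control myeloid cells held 217.1 to 380.6 CPM with a median of 320.5. HSC held 44.8, 52.1 and 67.7 CPM, CLP 52.4, 31.1, 29.3 and 17.8, GMP 19.1, 14.9, 24.0 and 16.6, and MEP 19.6, 22.8, 27.2 and 18.5. The myeloid range stood far above all others, HSC overlapped CLP but lay above every GMP and MEP pool, and CLP, MEP, MSC and GMP overlapped. MSC pool 7, the library of 321860 counts, had 0 counts of Cdkn2d, which allows a level of up to 18.6 CPM.

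Cdkn1b, encoding p27, was at 106.5 to 177.8 CPM (median 132.6) in control myeloid cells and at 44.7, 58.7, 58.6 and 67.9 in CLP. HSC held 54.6, 54.1 and 31.1 CPM, MEP 34.5, 52.4, 42.2 and 53.4, and GMP 36.8, 47.7, 31.2 and 48.5. Myeloid cells stood apart, and the other 5 populations overlapped as neighbours. Between HSC and the 3 progenitors its log2 differences in the edgeR fit were -0.25 (CLP), 0.15 (GMP) and -0.010 (MEP), none of which passed. The level of p27 is also set by breakdown of the protein, which RNA does not show.

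Cdkn2c ran from 32.2 through a median of 60.6 to 109.8 CPM in control myeloid cells. MEP held 36.3, 31.7, 31.7 and 32.1 CPM, CLP 17.8, 41.9, 23.2 and 34.3, HSC 32.8, 22.6 and 23.0, and GMP 26.7, 26.5, 26.7 and 21.9. Neighbours in this order of means overlapped, although GMP lay below MEP, and MSC, at 5.60 to 18.6 CPM, lay below GMP. Between these INK4 transcripts, Cdkn2c was 44.8% ± 4.83 (SD, n = 4) of their summed CPM per kb in GMP and 47.0% ± 5.27 in MEP, 22.3% ± 6.92 in HSC (n = 3) and 11.1% ± 4.94 in myeloid cells (n = 6).

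The pocket proteins differed in where they were highest. Rb1 was at 49.4 to 74.9 CPM (median 58.1) in myeloid cells and at 55.9, 60.9, 46.1 and 61.3 in MEP, which overlapped. MEP lay above CLP (31.9, 33.0, 39.0 and 32.3), HSC (29.4, 26.7 and 34.6) and GMP (27.8, 31.5, 25.5 and 34.5), which overlapped one another. Rbl2, encoding p130, was at 95.2, 100.6 and 76.9 CPM in HSC. MEP held 52.7, 60.2, 51.8 and 61.2 CPM, GMP 48.0, 60.4, 39.2 and 63.5, and CLP 8.51, 51.0, 52.5 and 29.6. Every HSC pool was above every pool of the other 5 sorted populations, and the rest overlapped. The lowest CLP value was again that of pool 1.

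Stem cells were then compared with each of the 3 progenitors. These comparisons and that of MSC with HSC use the same 3 HSC libraries, so they are not independent of one another. Differences are log2 of the first over the second with its standard error (SE), from 1 edgeR fit of the 31 control libraries with a term for batch.

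Against CLP, 2 of 10 members passed, where 13.3% of all genes did. Ccnd3 was lower in HSC by a log2 difference of -1.14 ± 0.25 (adjusted p = 0.00179, edgeR's quasi-likelihood test). Rbl2 was higher by 1.42 ± 0.40 (adjusted p = 0.0171), but leaving out CLP pool 1 gave 0.92 with an adjusted p of 0.118, leaving out HSC pool 3 or 5 gave 0.0906 or 0.108, and a fit of HSC and CLP alone gave 0.0897. Ccnd1, at 1.10 ± 0.52, did not pass (adjusted p = 0.161) and did with mouse pool as a block (1.31, adjusted p = 0.027). The members' median was -0.059 beside 0.068 over all genes.

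Against GMP, 2 of 10 members passed and 16.8% of all genes did. Cdkn2d was higher in HSC by 1.52 ± 0.31 (adjusted p = 0.000546, edgeR's quasi-likelihood test) and Ccnd1 by 1.58 ± 0.52 (adjusted p = 0.0321). The call of Ccnd1 was lost without a filter on low counts (0.0598) and with no batch term. It was also lost without GMP pool 1, 5 or 7 or HSC pool 3 or 5 (0.0606 to 0.161). Cdk6 stood at -1.13 ± 0.41 and missed the threshold (adjusted p = 0.0537) although no pool of HSC reached any pool of GMP; with pool as a block it was -1.18 with an adjusted p of 0.0346, and in batch A libraries alone -1.20 with 0.000435. Medians were 0.30 for the members and -0.010 for all genes.

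Against MEP, 2 of 10 passed, beside 14% of all genes. Cdkn2d was again the inhibitor that was higher in HSC, by 1.28 ± 0.31 (adjusted p = 0.00431, edgeR's quasi-likelihood test), and Rb1 was lower by -0.93 ± 0.27 (adjusted p = 0.0198). Without HSC pool 3, HSC pool 5 or MEP pool 7 the adjusted p of Rb1 was 0.0716, 0.0988 or 0.0543. Ccnd2, at 0.90 ± 0.32, had an adjusted p of 0.0593, which was 0.0135 with pool as a block (0.84); Ccnd1, at 1.11 ± 0.51 and 0.167, had 0.0287 with the block (1.20). The block thus raised the count from 2 to 4 members. A fit of HSC and MEP libraries alone called 7 members, and the same kind of fit called 6 against GMP. Both fits also called more of all genes than the main fit did. Their share of all genes is not given here, so the 7 and 6 have no background.

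Between the sister progenitors GMP and MEP, 1 of 10 members passed, beside 12% of all genes. Rb1 was lower in GMP by -0.91 ± 0.25 (adjusted p = 0.0112, edgeR's quasi-likelihood test). The other 9 had differences between -0.47 (Ccnd1) and 0.39 (Ccnd2), with adjusted p of 0.34 or more.

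The widest shift was from GMP to sorted myeloid cells, where 8 of 10 members passed and 27.3% of all genes did. The labels of those libraries read only myeloid and do not give a stage of maturity. All 4 that were lower drive the cycle: Ccnd1 by -4.05 ± 0.79 (adjusted p = 0.000253, edgeR's quasi-likelihood test), Ccnd2 by -3.87 ± 0.46 (1.89e-07), Cdk6 by -3.54 ± 0.58 (2.65e-05) and Cdk4 by -3.12 ± 0.54 (6.37e-05). The 4 that were higher were Cdkn2d by 3.75 ± 0.44 (1.84e-07), Ccnd3 by 2.64 ± 0.33 (4.49e-07), Rb1 by 1.30 ± 0.37 (0.00794) and Cdkn1b by 1.10 ± 0.35 (0.017). Cdkn2c, at 1.27 ± 0.52, missed the threshold (0.0712), and Rbl2 was at -0.49 ± 0.54 (0.537). Ccnd3 therefore moved opposite to the other D-type cyclins, and its CPM in myeloid cells was above that of GMP in all 6 pools.

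GMP and myeloid libraries share no batch, and the term for batch rests on MSC and WBM, whose batch C and A libraries differed in unlike ways. For Cdk4, batch C over A was 0.64 on the log2 scale in MSC, while WBM went from a mean of 289.0 CPM in batch A to 72.0 in batch C; the batch C library of WBM also held 111100 CPM of summed erythroid markers against 10340 to 13800 in the others. For Cdk6 it was 2.13 in MSC and 0.26 in WBM. Fitted without the batch term, an alternative chosen after seeing the data, the same 8 members and Cdkn2c (1.32, adjusted p = 0.00262) passed. That fit also called more of all genes than the main fit did, and their share is not given here. The differences for Ccnd1, Ccnd2, Cdk6 and Cdk4 were then -2.75, -3.11, -2.20 and -2.81, and those for Cdkn2d, Ccnd3, Rb1 and Cdkn1b were 4.00, 2.82, 0.97 and 1.70. Cdkn1b and Rb1 lost their calls without a filter on low counts (0.112 and 0.0534), and Cdkn1b without myeloid pool 15 (0.0526); Cdkn2c gained one without myeloid pool 17 (1.58, 0.0247) and with DESeq2 size factors (1.58, 0.0106), a scaling that moved the median of all genes by 0.288.

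**Figure D3:**
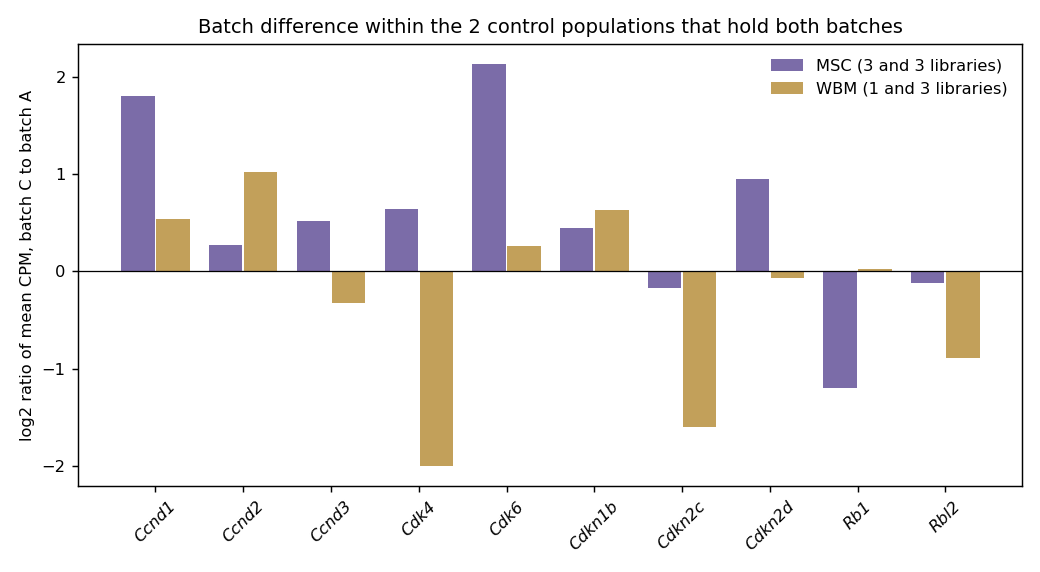
Log2 ratio of the mean CPM in batch C to that in batch A, on the y axis, for each of the 10 genes in control MSC (3 libraries against 3) and control WBM (1 against 3). Cdk6 lies at 2.13 in MSC and 0.26 in WBM, and Cdk4 lies above 0 in MSC and far below 0 in WBM, so the populations that tie the batches together give different batch differences.

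Markers of GMP also moved within the myeloid libraries. Mpo, Elane, Prtn3 and Ctsg summed to 4832 to 11890 CPM in the batch B controls and to 2379 to 2583 in batch C, against 23990 to 35000 in sorted GMP. Control pool 11, which had the most among controls at 11890, also had the highest Ccnd2 (37.1 CPM) and the lowest Ccnd3 (473.7) of the myeloid pools. Anti-PAPP-A pool 12 had more of these markers, 15890 CPM, with Ccnd2 at 20.8 and Ccnd3 at 867.3. The part of those cells in the members' levels was not tested.

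MSC were lower than HSC for 4 of 10 members, beside 33.2% of all genes called. Ccnd1 differed by -2.85 ± 0.64 (adjusted p = 0.000706, edgeR's quasi-likelihood test), Ccnd2 by -1.96 ± 0.34 (3.55e-05), Cdkn2d by -1.39 ± 0.35 (0.00227) and Cdk6 by -1.38 ± 0.45 (0.0168). The Cdk6 value turned on the batch term: without it the difference was -0.23 (adjusted p = 0.74), and the call was lost without the libraries under 1000000 counts (0.0546) or without MSC pool 3 (0.122). Within batch A, where both populations have 3 libraries, 9 of 10 members were lower in MSC. Among them were Cdk6 by -1.96 (2.72e-06), Cdk4 by -1.41 (0.00186) and Cdkn2c by -1.68 (0.000652), and Rb1 alone did not pass (-0.15, adjusted p = 0.711). The share of all genes called in that batch A fit is not given here, so the 9 have no background. Its MSC libraries were shallow, with 3753007, 1431006 and 321860 counts, where the batch C controls held 15318825 or more. With pool as a block, Cdkn2c (-1.09, 0.0257) and Rbl2 (-1.16, 0.0211) joined the 4. The members' median was -0.99 beside 0.12 over all genes. MSC pool 7, the shallow library, also held 8646 CPM of plasma cell markers against 593.4 to 764 in the other control MSC.

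**Figure D4:**
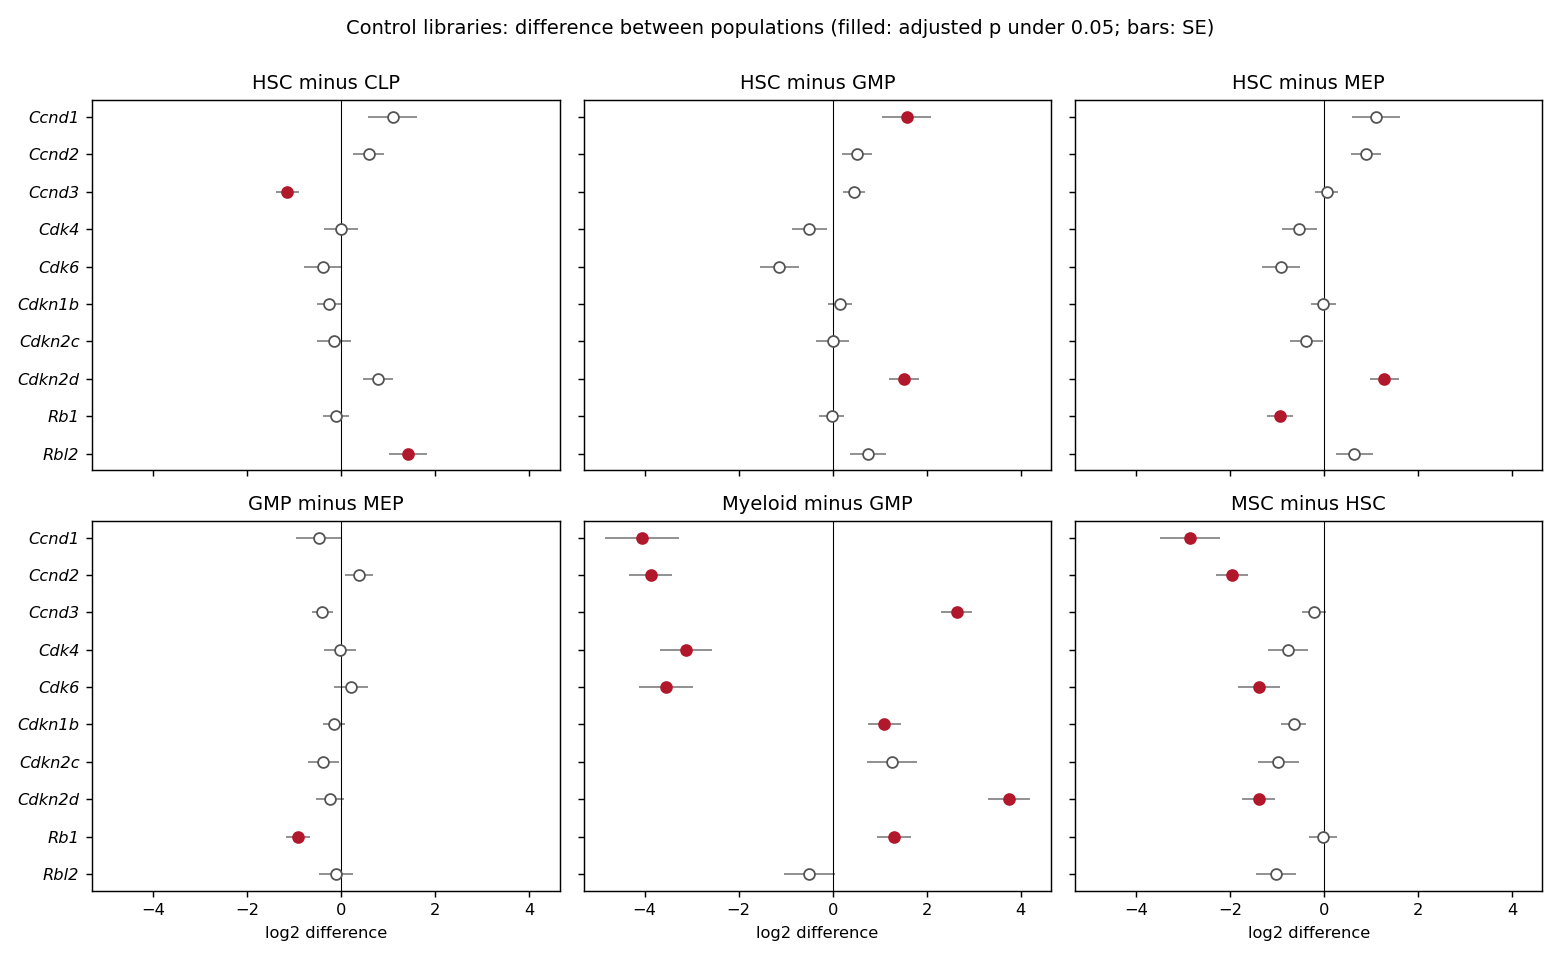
Log2 difference, with its SE as error bar, of each of the 10 genes in the 6 comparisons of control populations, from the edgeR fit of 31 control libraries with a batch term; filled points have an adjusted p under 0.05. Myeloid against GMP holds 8 filled points, 4 on each side of 0, and HSC against CLP, GMP and MEP hold 2 each.

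Other genes of the pathway were read the same way, from lists of 5 other CDK inhibitors, 8 genes of the cyclin E and CDK2 module, 11 other pocket protein and E2F genes, 7 of the DREAM and MuvB complexes, 20 S phase genes, 18 G2/M genes and 5 factors that activate or fold CDKs. Among the inhibitors, Cdkn1c (p57, a keeper of stem cell quiescence) was at 18.9 CPM in HSC and below 1 CPM on average in CLP, GMP and MEP. It was higher in HSC by 4.42 against CLP (adjusted p = 1.37e-05, edgeR's quasi-likelihood test), 5.19 against GMP (6.79e-08) and 4.31 against MEP (1.81e-06), and it was the only inhibitor of the 5 to pass in each. In the cyclin E and CDK2 module, Ccne1, which opens S phase after the D-type cyclins, was lower in HSC than in MEP by -3.64 (2.09e-06) and in GMP than in MEP by -2.86 (3.25e-06). Cdc25a, the phosphatase that activates CDK2, was lower in HSC than in CLP (-0.80), GMP (-1.27) and MEP (-1.29), and passed each time. Among the E2F genes and their dimer partners, Tfdp2 was lower in myeloid cells than in GMP by -3.25 (2.92e-07) while E2f2 was higher by 3.51 (4.22e-05).

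Downstream, 13 of 20 S phase genes were lower in myeloid cells than in GMP and none was higher, beside 27.3% of all genes called in either direction. Their median was -1.72 beside -0.21 for all genes. The 18 G2/M genes had a median of -0.34. The summed level of these G2/M genes was 2614 to 3709 CPM in control myeloid cells, 2246 to 3075 in GMP and 2646 to 4309 in CLP. In HSC it was 1688 to 2754 CPM and in MEP 1937 to 3060, and all these ranges overlapped. In MSC against HSC, 18 of 20 S phase and 18 of 18 G2/M genes were lower, with medians of -2.65 and -3.36 beside 0.12, where 33.2% of all genes were called. In HSC against MEP, 6 of 20 S phase genes were lower and none higher (median -0.70), beside 14% of all genes called. Against GMP, 4 were lower and 1 higher (median -0.58), beside 16.8%. Against CLP, 0 were lower and 1 higher (median -0.093 beside 0.068 for all genes), beside 13.3%. Of the CDK activating and folding factors, 4 of 5 were lower in myeloid cells than in GMP, including Hsp90ab1 by -2.48 (2.12e-07), a chaperone that holds CDK4 for loading.

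Across the 31 control libraries, the genes with the pattern most like each member were found by Pearson correlation of log2(CPM + 1) over 10001 genes of at least 10 CPM on average. These values describe libraries that share population, batch and depth, and carry no p. Cdk4 ran close to Prmt1 (0.954) and Ddx1 (0.94), Ccnd2 to Cxxc5 (0.928), Cd34 (0.909) and Atp2b4 (0.906), and Ccnd1 to H1fx (0.914), Atp2b4 (0.855) and its neighbour in the family Ccnd2 (0.845). Ccnd3 ran with Lsp1 (0.94), Agpat9 (0.933) and Hopx (0.923), and Cdkn2d with Cep19 (0.943), Cdc42se1 (0.933) and Gnal (0.929). The nearest to Cdkn1b were Arap1 (0.93), Iqgap1 (0.929) and Inpp5k (0.901), and to Cdkn2c S1pr4 (0.904), Pxn (0.902) and Shkbp1 (0.902). The likeness was looser for Cdk6 (Set 0.866, Fasn 0.84, Naf1 0.84), Rb1 (Tmc8 0.849, Senp2 0.846, Setd3 0.845) and Rbl2 (Ciz1 0.882, Def8 0.88, Dpf2 0.853). Among the members, Cdkn1b and Cdkn2d gave 0.853 and Ccnd3 and Cdkn2d 0.835, while Ccnd2 gave -0.616 with Ccnd3.

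Anti-PAPP-A was compared with control within each sorted population, the contrast the design is built on. No member passed in any of the 6 populations, by edgeR's quasi-likelihood test or by DESeq2, and 1 of the 60 values, Ccnd3 in MEP, had an unadjusted p under 0.05. The test also called few genes in all, 0.0313% of genes in MSC, 0.0069% in HSC and 0% in the remaining populations (myeloid cells, MEP, GMP and CLP). Over all genes, an unadjusted p under 0.05 was found for 1156 genes in HSC, 676 in MSC, 437 in myeloid cells, 444 in MEP, 195 in GMP and 29 in CLP, and DESeq2 called 64 genes in MSC, 5 in HSC, 11 in myeloid cells, 13 in MEP and 0 in CLP and GMP.

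The differences, treated over control on the log2 scale, lay between -0.41 (Rbl2) and 0.27 (Ccnd2) in HSC, with SEs of 0.17 to 0.26. They lay between -0.44 (Rb1) and 0.40 (Ccnd1) in CLP, with SEs of 0.19 to 0.51, and between -0.28 (Rb1) and 0.33 (Ccnd1) in GMP, with SEs of 0.097 to 0.33. MEP gave the tightest values, -0.27 (Cdkn2d) to 0.19 (Ccnd3) with SEs of 0.076 to 0.23. In MSC they ran from -0.41 (Rb1) to 0.64 (Cdkn2c) with SEs of 0.17 to 0.68, and in myeloid cells from -0.42 (Rbl2) to 0.64 (Cdk6) with SEs of 0.14 to 0.91. A p that misses the threshold does not show that the levels were equal.

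**Figure D5:**
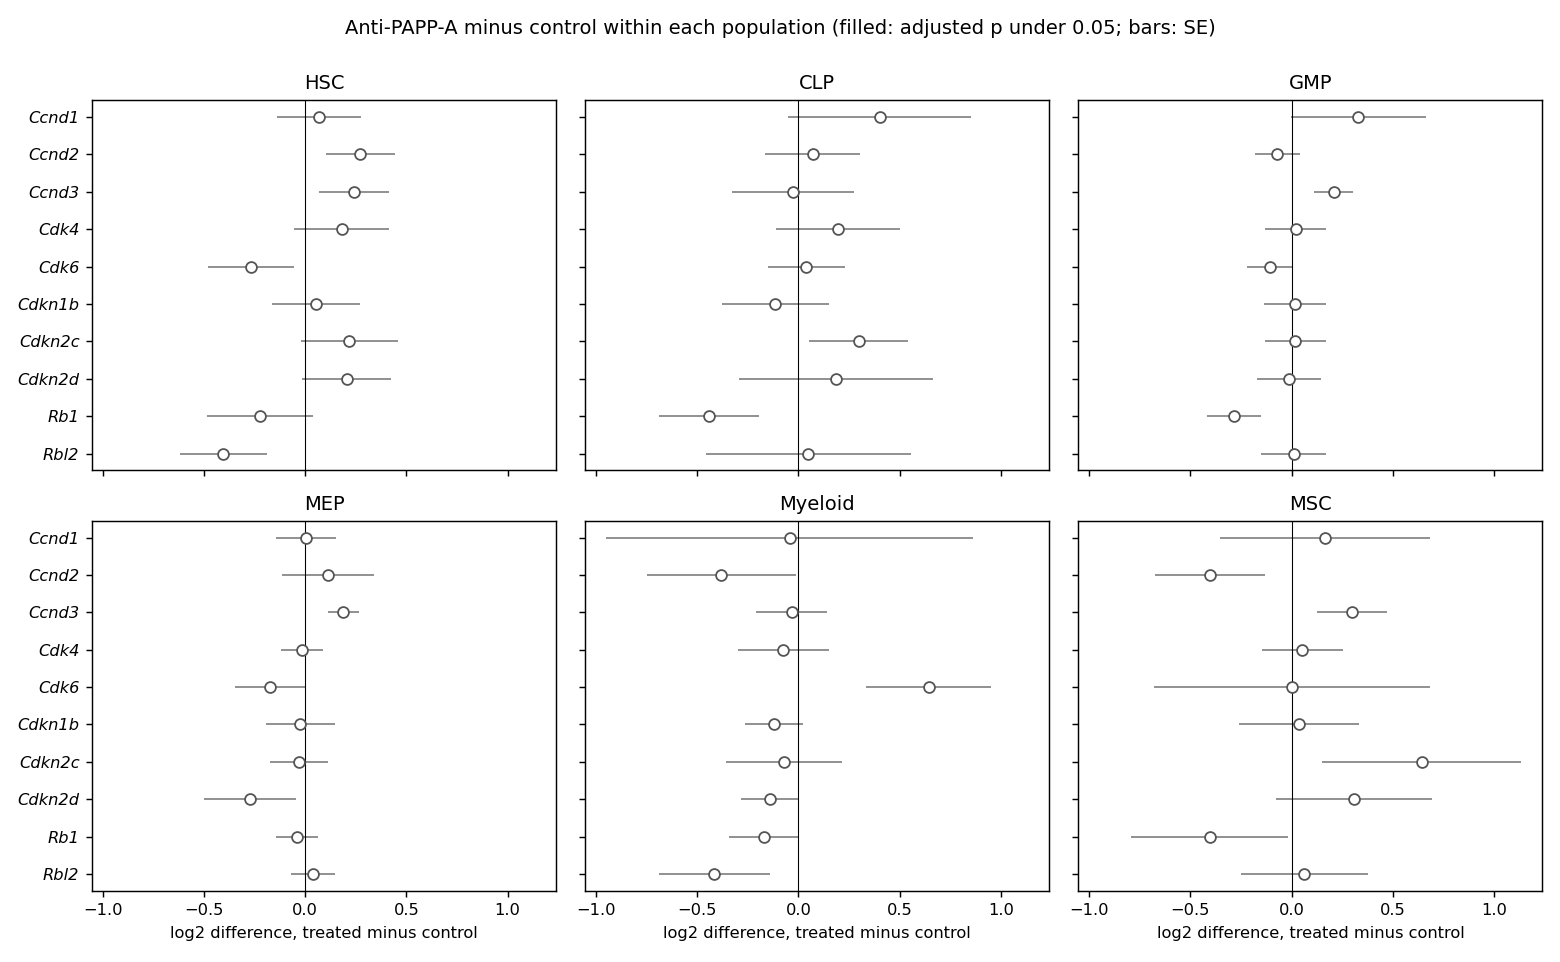
Log2 difference of anti-PAPP-A over control, with its SE as error bar, for each of the 10 genes in the 6 sorted populations; filled points would mark an adjusted p under 0.05. No point is filled, and the widest bar is that of Ccnd1 in myeloid cells, where its level is at most 4.42 CPM.

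For Ccnd3 in GMP, the treated pools held 146.7, 121.3, 123.0 and 128.5 CPM and the control pools 108.4, 104.2, 120.2 and 119.5. Every treated pool was above every control pool, with a difference of 0.21 ± 0.097 (adjusted p = 1, edgeR's quasi-likelihood test). It was the only member and population of the 60 in which the groups did not overlap. The share of all genes whose groups lay apart was not computed, so this count has no background and is not read as a result. In MEP, Ccnd3 stood at 151.0, 165.1, 170.7 and 171.4 CPM in treated and 155.2, 148.2, 135.5 and 156.7 in control pools, which overlap, with a difference of 0.19 ± 0.076 (adjusted p = 0.999).

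Rb1 was the only member whose difference had the same sign in all 6 populations, from -0.44 in CLP to -0.041 in MEP, with adjusted p from 0.838 to 1. In GMP its treated pools held 26.5, 22.5, 22.3 and 26.1 CPM against 27.8, 31.5, 25.5 and 34.5 in control, and in HSC 20.3, 16.2, 16.4 and 36.6 against 29.4, 26.7 and 34.6. The groups overlapped in both. HSC, CLP, GMP and MEP libraries came from the same pools of mice, so the 6 signs are not independent, and in MEP the value reached 0.017 in 1 of the alternative fits.

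The difference of Cdk6 in myeloid cells was 0.64 ± 0.31 (adjusted p = 0.995, edgeR's quasi-likelihood test). In batch C the treated pools held 420.4, 334.4 and 464.7 CPM and the controls 254.6, 120.0 and 139.9, which do not overlap. In batch B the treated pools held 106.8, 146.1 and 97.1 and the controls 94.2, 170.7 and 72.7, which do. Within batch C the difference was 1.25 (adjusted p = 0.441) and within batch B 0.054 (adjusted p = 1). In the same batch C libraries the summed MSC markers were at 95.1 to 144.6 CPM in treated and 10.7 to 77.6 in control pools, and the B lineage list, most of it Ebf1, at 194.1 to 294.2 and 53.5 to 155.3; in batch B both lists were at 34.1 CPM or less. Cdk6 itself was at 113.6 to 549.7 CPM in batch C control MSC, and the part of stromal RNA in the myeloid value was not tested.

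The effect of the antibody on the members was not shown to differ between populations. A test of equal effects in all 6, run on the 53 sorted libraries together, called 0 of 10 members and 0.0511% of all genes; 0 members had an unadjusted p under 0.05, and the smallest was that of Cdk6 (0.281, adjusted p = 1). Of the 74 other pathway genes, of which 71 to 73 were tested in a population, edgeR's quasi-likelihood test called 0 in each of the 6, and an unadjusted p under 0.05 was found for 5 in MSC, 4 in HSC, 1 in GMP, 1 in MEP and 0 in CLP and myeloid cells; DESeq2 calls were not read for them. In the test of equal effects 1 of 18 G2/M genes passed, Cenpe (adjusted p = 0.00105), a kinesin of the mitotic spindle.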

How the data were processed

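Total RNA from unsorted or sorted marrow was extracted on RNeasy columns, cleared of DNA with DNase I and sequenced on a HiSeq instrument from directional (NEBNext Ultra II) libraries, per the labels' protocols. The submitters' processing notes name FastQC 0.11.5, Salmon and the mm10 build; the version of Salmon, the annotation release and the use of strand in counting were not given in the sources used here. The deposited table holds estimated counts that were already whole numbers; it repeats 18072 of its 56332 genes over several lines, always with equal values, and 1 line per gene was kept. Genes with a UCSC identifier held 4.57% of counts. No 2 libraries were identical.

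From these counts, genes were filtered with filterByExpr, scaled with TMM (the trimmed mean of M-values) and tested with edgeR 4.0.16 (quasi-likelihood, robust, in R 4.3.3), with Benjamini-Hochberg adjustment over all genes tested and a threshold of 0.05. Anti-PAPP-A was compared with control within each population, with a batch term in MSC and myeloid cells. The 31 control libraries were fitted together with a batch term. CPM values are on 1 TMM scale over all 57 libraries and carry no batch correction; a share per kilobase divides CPM by the union of a gene's exons in GENCODE vM21 (GRCm38), whose identifiers matched all 10 members. Alternatives were DESeq2 1.42.0, its size factors, no filter, a block for mouse pool, shallow libraries left out, single batches, pairs of populations alone, and each library left out; the fits with no batch term in the control comparisons were added after seeing the data. The fitting code was tested on simulated data. Promoter sequences are from RefSeq on GRCm38.p6.

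Same-numbered libraries come from the same mice across populations. In 21 same-pool pairs the deviations from group means correlated with a median r of 0.155 over 9094 genes. Their r ran from -0.516 to 0.514, and 12 pairs were over 0.1. In 63 different-pool pairs the median r was -0.020, with a range of -0.516 to 0.596, and 18 pairs were over 0.1. Control and treated pools have different numbers.

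The 10 members and the pathway and marker lists were chosen with earlier results of these data known. Named genes are all 10 members, the 3 most similar genes of each (1 of which is not reported here), and up to 4 genes of a pathway list by smallest p in a comparison.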

Additional observations from a re-analysis of the deposited data

Results flagged for a closer look

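Within each group of 4 to 6 libraries, the gap between the highest or lowest value and the next was compared with the range (Dixon's test), for each member. Of 120 such tests 14 stood out, where chance gives about 1 in 20. All values are CPM.

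Among the cyclins, Ccnd2 was at 122.6 in anti-PAPP-A GMP pool 4 (others 140.7 to 142.9) and at 37.13 in control myeloid pool 11 (others 9.134 to 19.59). The same myeloid library had Ccnd3 at 473.7 (others 809.4 to 993.0), and anti-PAPP-A myeloid pool 10 had Ccnd3 at 544.8 (others 821.9 to 950.3). Ccnd3 was at 115.1 in anti-PAPP-A HSC pool 6 (others 176.2 to 187.0), from 21 counts in the shallowest library.

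Among the kinases, Cdk4 was at 128.7 in control CLP pool 1 (others 345.3 to 368.2) and at 541.8 in control GMP pool 5 (others 346.4 to 371.2). Cdk6 was at 642.2 in anti-PAPP-A MEP pool 4 (others 388.4 to 405.0).

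Among the inhibitors, Cdkn1b was at 84.86 in control WBM pool 15 (others 53.55 to 55.55). Cdkn2c was at 21.88 in control GMP pool 7 (others 26.53 to 26.72) and at 36.29 in control MEP pool 1 (others 31.66 to 32.10).

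Of the pocket proteins, Rb1 was at 39.04 in control CLP pool 5 (others 31.91 to 33.02), from 32 counts, and at 74.48 in control MSC pool 7 (others 13.25 to 28.02), from 12 counts. Rbl2 was at 20.61 in control WBM pool 15 (others 36.70 to 39.63), the WBM library of batch C.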

How the results depend on the processing

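No called value changed direction under any alternative tried, and no member was called for the antibody in any of them. Counts of members called that moved by over 1.5 times are these. For HSC against CLP, 2 became 1 with these populations alone and 1 to 2 with a library left out. For HSC against GMP, 2 became 6 with these populations alone, 1 with no batch term and 1 to 2 with a library left out. For HSC against MEP, 2 became 4 with mouse pool as a replicate block, 5 in batch A alone, 7 with these populations alone and 1 to 2 with a library left out. For GMP against MEP, 1 became 3 with these populations alone. For MSC against HSC, 4 became 9 in batch A alone, 7 with these populations alone and 4 to 7 with a library left out. Counts over all genes in those MSC and HSC fits are not given here. The block also gave 3 members against CLP, 3 against GMP and 6 for MSC against HSC, and changed no call other than those named in the report. Myeloid cells and GMP share no batch and could not be fitted alone. With the longest transcript as length, the Ccnd3 share became 72.7% in MSC, 48.3% in HSC, 52.7% in GMP and 63.4% in MEP, and the Cdk6 share in MEP 18.9%.

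Counts over all genes moved as well: HSC against MEP from 2985 to 7293 and HSC against GMP from 3600 to 6239 with the populations alone, GMP against MEP from 2556 to 5401, HSC against CLP from 2851 to 4914 in batch A, and Myeloid against GMP from 5838 to 9374 with no batch term. For the antibody in MSC, 5 genes became 649 in 1 fit of all sorted libraries, 64 with DESeq2 and 55 with no filter, in HSC 1 became 181 with no filter, and in myeloid cells 0 became 112. The causes were not tested. Low counts limit Ccnd1 in myeloid cells and every member in the 4 libraries under 1000000 counts.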

Other observations

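Unsorted marrow, which entered no comparison of its own, held Cdkn2d at 133.3 to 150.4 CPM and Ccnd3 at 762.5 to 1090 CPM in its 4 control libraries. Its Cdk4 was at 288.7, 244.8 and 333.5 CPM in the libraries of batch A and at 72.0 in that of batch C, pool 15, which also had the highest summed level of erythroid markers, 111100 CPM. Cdk6 in the same libraries was at 167.9, 196.4 and 164.6 CPM in batch A and 211.4 in batch C. Whether Ccnd3 in unsorted marrow comes from its myeloid cells was not tested.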
